A study of Mus musculus with 25 samples.

Results

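The genes described here are 32 genes of endoplasmic reticulum (ER) stress and ER protein folding, chosen by symbol from the 54429 rows of a mouse expression table. They are 3 stress sensors, 6 transcription factors and feedback genes, 9 chaperones and co-chaperones, 5 lectin chaperones and disulfide isomerases, 5 genes of ER-associated degradation and 4 targets of the factor ATF4. The rule names symbols and uses no measured value, but the set was drawn up with earlier results of these data known. All 32 had a row, and 27 had an RPKM (reads scaled to gene length and library size) of at least 1 in at least 2 libraries and entered the main test. The other 5 (Atf3, Atf6, Ern1, Eif2ak3 and Trib3) were tested only on a scale of library size alone, CPM, introduced after that was seen. The deposited RPKM was read as divided by the whole gene span, which lowers the value of long genes: Atf6 was under 1 RPKM with 252 to 726 reads per library.

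RNA was sequenced in cultured astrocytes from the cortex of C57BL/6J mice, purified on an antibody to the astrocyte surface protein HepaCAM. Cells were given an EGFR inhibitor (n = 3) or DMSO (n = 3), or a P53 inhibitor (n = 3) or its own DMSO (n = 3), with both inhibitors added on day 2 in vitro. Other cells were grown with HBEGF (n = 2), a ligand of EGFR, or had HBEGF withdrawn (n = 2) from the day of preparation. Further cells, with no treatment named, were taken on days 2, 7 and 14 in vitro (n = 3 each). The labels do not state the inhibitors' names and doses, the age of the animals or the harvest day of treated cells. They also do not give the HBEGF content of the media of the inhibitor, DMSO and day groups. Nor do they say whether replicates came from separate cultures or animals, so each p-value reflects the spread between libraries, possibly a technical one.

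Proteins bound for secretion or membranes fold in the ER with the help of chaperones such as BiP, the product of Hspa5. When unfolded proteins build up, the sensors ATF6, IRE1 (Ern1) and PERK (Eif2ak3) start the unfolded protein response: ATF6 and spliced XBP1 drive chaperone and degradation genes, and PERK slows translation and favours ATF4. ATF4 is also made when other kinases sense amino acid shortage, or when growth factor signalling through mTORC1 is active, and it drives genes of amino acid supply such as Asns. Astrocytes make and secrete many proteins and, through Phgdh and Psat1, the serine used by neighbouring neurons.

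Promoters of chaperone genes and of ATF4 targets are shown because the results turn on these kinds of gene. The ER stress response element (ERSE, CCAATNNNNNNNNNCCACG, searched on both strands) was found in the promoters of 8 of 28 members with an entry in the RefSeq table (GRCm38.p6, windows of 300 bases, 250 of them before the start). These were Calr, Canx, Creld2, Dnajc3, Hsp90b1, Hspa5, Pdia6 and Syvn1, 28.6% of the members against 0.119% of all 32851 windows. The related ERSE-II (ATTGG, any base, then CCACG) was in 2, Dnajb11 and Herpud1, or 7.14% against 0.0365%. The C/EBP-ATF response element (CARE, TGATGNAA) bound by ATF4 was in 5, Asns, Atf3, Chac1, Herpud1 and Trib3, or 17.9% against 3.97%, and the UPR element TGACGTG in 1, Hspa5, or 3.57% against 2.01%. Below are the 250 bases before the RefSeq start for 3 chaperone genes, with ERSE and UPR element matches in capitals, and then for 2 ATF4 targets, with CARE matches in capitals, each 5′ to 3′ on the gene's strand.
Hspa5 (chr2:34771840-34772089, plus strand): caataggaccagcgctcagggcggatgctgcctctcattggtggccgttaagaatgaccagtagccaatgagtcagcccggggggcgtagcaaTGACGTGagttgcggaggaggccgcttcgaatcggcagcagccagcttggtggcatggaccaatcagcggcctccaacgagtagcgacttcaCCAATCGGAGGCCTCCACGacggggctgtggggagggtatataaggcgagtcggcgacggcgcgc
Hsp90b1 (chr10:86705445-86705694, minus strand): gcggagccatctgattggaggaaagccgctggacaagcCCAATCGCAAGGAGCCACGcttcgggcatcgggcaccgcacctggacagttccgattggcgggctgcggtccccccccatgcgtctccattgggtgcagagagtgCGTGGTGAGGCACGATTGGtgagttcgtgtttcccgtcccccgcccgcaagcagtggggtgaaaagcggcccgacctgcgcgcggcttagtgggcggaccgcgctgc
Pdia6 (chr12:17266339-17266588, plus strand): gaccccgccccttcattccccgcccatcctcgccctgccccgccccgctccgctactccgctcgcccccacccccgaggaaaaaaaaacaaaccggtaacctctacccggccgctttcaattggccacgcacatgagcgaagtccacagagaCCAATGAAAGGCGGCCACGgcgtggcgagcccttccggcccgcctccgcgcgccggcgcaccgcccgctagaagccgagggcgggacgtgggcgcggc
Asns (chr6:7693210-7693459, minus strand): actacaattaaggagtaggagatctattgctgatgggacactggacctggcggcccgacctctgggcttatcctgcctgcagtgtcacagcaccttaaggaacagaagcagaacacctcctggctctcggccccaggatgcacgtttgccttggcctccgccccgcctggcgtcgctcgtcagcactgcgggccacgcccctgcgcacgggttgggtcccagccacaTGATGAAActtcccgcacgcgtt
Chac1 (chr2:119350992-119351241, plus strand): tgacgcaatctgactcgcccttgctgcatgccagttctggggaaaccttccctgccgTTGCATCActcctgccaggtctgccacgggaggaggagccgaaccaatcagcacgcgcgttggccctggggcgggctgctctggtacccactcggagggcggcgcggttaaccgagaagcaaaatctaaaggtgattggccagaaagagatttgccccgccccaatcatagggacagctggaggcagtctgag
The ERSE of Hspa5 lay 65 to 47 bases before the start and its UPR element 157 to 151 before it. Hsp90b1 held 2 ERSE matches on opposite strands, from 212 and from 107 bases before the start, and Pdia6 held 1 from 98 before it. The CARE match lay 23 to 16 bases before the start in Asns and 193 to 186 in Chac1, where it reads as the reverse complement. A match describes letters only, not a bound site. The members were chosen as genes of these pathways, so their larger shares are a description and not a test. Members were counted per gene and the background per window.

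Libraries held 4011280 to 9694369 reads counted to genes, and mitochondrial ribosomal RNA took 12.24 to 29.68% of them. That share was 22.2 to 25.32% with the EGFR inhibitor against 18.35 to 18.77% with DMSO, 27.86 to 29.68% after HBEGF withdrawal against 17.13 to 18.19% with HBEGF, and 12.24 to 16.03% on day 2 against 20.13 to 23.85% on day 14. With median-of-ratios scaling, the median log2 change over the 13850 tested genes went from -0.10 to 0.00 after withdrawal and from -0.11 to 0.00 between days 2 and 14, and splits of calls that change with it are given below. All 9 astrocyte markers were detected in every group, with summed RPKM of 73.5 to 386, and the oligodendrocyte lineage markers summed to 96.3 to 501. Such sums weigh genes of short span more and do not measure cell content. The median log2 change of the 7 tested oligodendrocyte lineage markers was -0.01 with the EGFR inhibitor and 0.07 after withdrawal. Where exons of a member overlap exons of a neighbouring gene, its reads could belong to either, as it is not known whether reads were counted by strand. This concerns Hsp90b1, Ddit3, Eif2ak3, Dnajb9, Pdia3, Pdia4, Pdia6, Manf, Syvn1 and Ppp1r15a, whose largest overlaps ran from 12 bases (Ppp1r15a) to 485 (Eif2ak3). Overlaps through introns, which would matter if reads were counted over whole genes, were not listed.

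Per kilobase of exon, a scale that compares genes only if reads were counted over exons, 3 chaperones ranked highest among the members. Whether reads were counted so was not tested. Over the 9 group means, Hsp90b1 (the ER HSP90, GRP94) averaged 184 on this scale (RPKM recomputed with exon length), the lectin chaperone Canx 161 and Hspa5 122. The serine synthesis gene Psat1 averaged 93.0, the disulfide isomerase Pdia3 77.6 and Atf4 55.0. The sensors were low on the same scale, with Atf6 at 7.63, Eif2ak3 at 3.24 and Ern1 at 2.18, and the stress-induced Atf3 and Trib3 were the lowest, at 1.49 and 0.715. Canx, Hspa5, Psat1 and Hsp90b1 were lowest in cells without HBEGF, and Atf4, Asns, Chac1 and Pdia6 in cells with the EGFR inhibitor. The widest ranges between group means on this scale were those of Chac1 (highest over lowest 15.8), Asns (11.9), Atf3 (7.73) and Trib3 (5.86), and the narrowest that of Sel1l (1.07), an adaptor of the degradation complex. Together the 32 genes took 0.251 to 0.570% of the reads of a library.

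**Figure D1:**
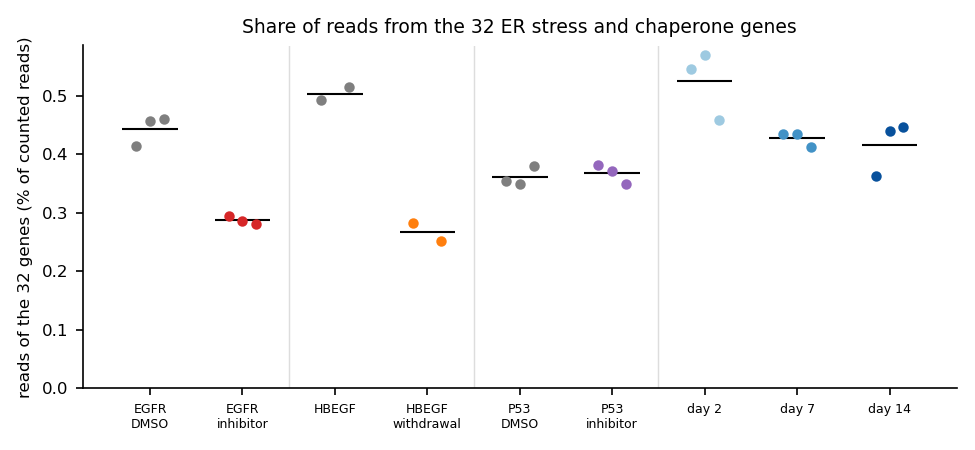
Share of all counted reads that came from the 32 genes (percent, vertical axis) in each of the 25 libraries, by group, with group means as lines. The 3 EGFR inhibitor libraries (0.281 to 0.294%) and the 2 libraries without HBEGF (0.251 to 0.282%) sit below their controls (0.415 to 0.460% and 0.492 to 0.515%), and the P53 groups overlap.

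The EGFR inhibitor was compared with DMSO to see which genes depend on the receptor in these cells. Atf4, 3 of the 4 genes grouped as ATF4 targets and 7 of 9 ER chaperones and co-chaperones fell, while Dnajb9 and Derl1 were called higher. Ddit3 and Trib3, also targets of ATF4, were grouped with the factors. In every treated library Ddit3 was above all controls, without passing in RPKM. Trib3 was below them, on 1 to 5 treated reads. Asns, which makes asparagine, fell 7.74-fold and Chac1, which degrades glutathione, 7.30-fold in mean RPKM. Hspa5 fell 2.0-fold and Hsp90b1 2.17-fold. Of the 27 members tested, 15 were lower and 2 higher by limma on log2(RPKM + 1) at a Benjamini-Hochberg adjusted p below 0.05, where 22.2% of all tested genes were lower and 16.3% higher. The members' median log2 change was -0.41, against -0.02 over all tested genes and -0.33 over the 2354 genes that averaged at least 5 RPKM. In bulk RNA, fewer cells that express a gene and less RNA per cell cannot be told apart.

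Asns showed the largest change. Its RPKM was 3.73, 4.87 and 4.61 with DMSO and 0.598, 0.552 and 0.556 with the inhibitor, from 427 to 686 reads and 58 to 63 reads per library. The groups lay far apart, and the treated libraries were nearly equal (log2 change -1.78 ± 0.27 SE, limma adjusted p = 4.42e-05). Chac1 was at 4.06, 3.19 and 3.47 RPKM with DMSO and 0.926, 0.158 and 0.385 with the inhibitor. The treated values rest on only 17, 3 and 7 reads, but none came near a control (-1.65 ± 0.38, limma adjusted p = 0.00215).

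Atf4, the factor that drives both genes, stood at 58.5, 56.3 and 52.3 RPKM with DMSO and 24.3, 26.1 and 20.4 with the inhibitor. Every treated library was below every control (-1.21 ± 0.27, limma adjusted p = 0.00143), a fall of 2.36-fold. ATF4 protein is set mainly by translation, which these libraries do not measure. Psat1, the aminotransferase of serine synthesis, fell from 9.33 ± 0.749 to 5.47 ± 0.765 RPKM (SD, n = 3 each; -0.68 ± 0.15, limma adjusted p = 0.00158). Phgdh, the enzyme of the step before it, was at 1.63 against 1.32 RPKM and did not pass (0.18 ± 0.10, limma adjusted p = 0.171).

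Among the chaperones and co-chaperones, 7 of 9 fell, 1 rose and 1 did not pass. Hspa5 was at 103, 116 and 117 RPKM with DMSO and at 54.3, 57.0 and 56.7 with the inhibitor, with no overlap (-0.98 ± 0.17, limma adjusted p = 0.000152). Hsp90b1 fell from 61.6 ± 5.45 to 28.3 ± 1.06 RPKM (-1.09 ± 0.10, limma adjusted p = 3.91e-07). Also lower were the BiP exchange factor Hyou1 (-0.65), the BiP co-chaperones Sdf2l1 (-0.68) and Dnajb11 (-0.48), the secreted stress protein Manf (-0.34) and Creld2 (-0.50), all on the log2(RPKM + 1) scale. Manf was under 1 RPKM in both groups (at most 0.869 with DMSO) and entered the main test only through libraries of other groups. Single libraries left out ended the calls of Sdf2l1 (limma adjusted p up to 0.072), Manf (up to 0.0751) and Creld2 (up to 0.132). The exception was Dnajb9, a BiP co-chaperone that restrains IRE1, which rose 1.69-fold from 2.26 ± 0.233 to 3.82 ± 0.919 RPKM (0.55 ± 0.16, limma adjusted p = 0.0109, or 0.0582 without inhibitor replicate 3). Dnajc3, an inhibitor of PERK, did not pass (0.07 ± 0.08).

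Of the lectin chaperones and disulfide isomerases, 3 of 5 fell. Pdia6 went from 7.56 ± 0.207 to 3.52 ± 0.216 RPKM (-0.92 ± 0.16, limma adjusted p = 0.000133), Canx changed by -0.45 and Pdia3 by -0.41. With quantile normalization the call of Canx was lost (-0.13, limma adjusted p = 0.291). Calreticulin (Calr) was at 21.6 against 27.7 RPKM, and Pdia4 at 8.22 against 6.70, neither passing. In the degradation group only Edem1, a mannosidase-like protein that hands glycoproteins to disposal, fell (-0.41 ± 0.09, limma adjusted p = 0.00154). Derl1, a channel component, was 1 of the 2 members called higher (0.20 ± 0.07, limma adjusted p = 0.0462), a call lost when any 1 of the 6 libraries was left out (0.0826 to 0.0994). Sel1l, Syvn1 and Herpud1 did not pass.

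No other tested factor or feedback gene was called lower. Ddit3, which encodes the pro-apoptotic factor CHOP and is a target of ATF4, was at 1.0, 1.80 and 1.39 RPKM with DMSO and 2.90, 2.05 and 1.98 with the inhibitor. All 3 treated libraries were above the controls, yet the change missed the threshold in RPKM (0.47 ± 0.20, limma adjusted p = 0.0704) and passed in CPM (0.67, limma adjusted p = 0.0375) and with median-of-ratios scaling (0.0371). Ppp1r15a, the phosphatase subunit that ends the PERK response, was at 3.48 ± 0.450 against 2.13 ± 0.529 RPKM without overlap (0.52 ± 0.27, limma adjusted p = 0.147). Xbp1 did not pass (-0.24 ± 0.20). On the CPM scale, where 16 of 32 members were lower and 2 higher (20.7% and 22.6% of 19832 genes), Eif2ak3 was the only sensor called (-0.62, limma adjusted p = 0.00715). The groups did not overlap for 26 of the 32 members, 19 of them lower, where 50.3% of all tested genes had separate groups.

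Median-of-ratios scaling gave 5 members higher and 14 lower, where 19.9% of all tested genes were higher and 19.0% lower, adding Ddit3, Pdia4 and Phgdh to those higher and losing Creld2. Astrocyte markers moved with the same contrast: 6 of 9 rose and 1 fell, and their summed RPKM was 365 to 386 with the inhibitor against 110 to 141. The oligodendrocyte lineage list fell for 3 of 7 tested markers and rose for 1, with sums of 104 to 127 against 320 to 415. Microglia markers summed to 1.74 to 4.40 against 0.438 to 0.732, with Tmem119 at 0 in both groups. Neuron markers summed to 6.86 to 8.20 against 3.06 to 3.26, and 3 of 3 tested rose. Pericyte and fibroblast markers summed to 3.97 to 5.42 against 2.32 to 3.64, with Dcn at 0, and 1 of 2 tested rose. Their part in the changes of the 32 genes was not tested.

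**Figure D2:**
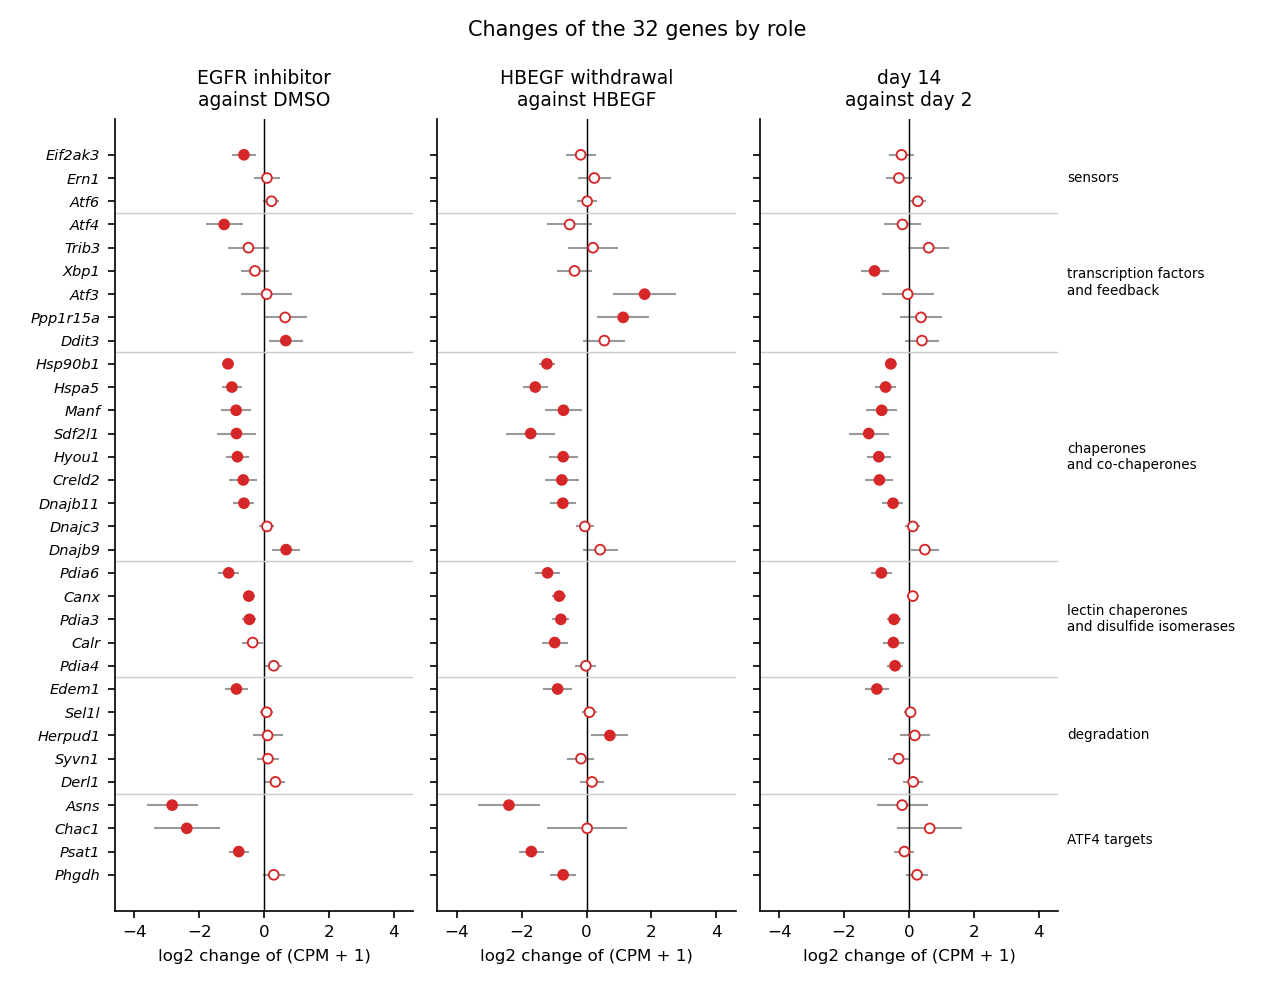
Log2 change of CPM + 1 (horizontal axis) of all 32 genes, grouped by role, with 95% intervals, for the EGFR inhibitor, HBEGF withdrawal and day 14 against day 2. Filled points have a limma adjusted p below 0.05. Most chaperones lie left of 0 in all 3 panels, while Asns lies far left in the first 2 panels and near 0 in the third.

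HBEGF withdrawal was compared with continued HBEGF to see what the ligand maintains, and no library is shared with the comparison above. ER chaperones and genes of amino acid supply fell here too: Asns 4.78-fold, Sdf2l1 3.53-fold, Psat1 3.26-fold and Hspa5 3.0-fold. Atf4 and Chac1 did not pass here. By limma, 14 of 27 members were lower and 1 higher, where 22.5% of all tested genes were lower and 10.0% higher. The members' median log2 change of -0.42 stood beside -0.10 over all tested genes and -0.45 over those averaging at least 5 RPKM. With 2 libraries a group, these calls rest on a spread pooled over all 9 groups: fitted on the 4 libraries alone, 0 members and 0 of all genes passed limma's threshold.

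Asns was at 5.15 and 5.82 RPKM with HBEGF and at 1.72 and 0.571 without it. Both values without HBEGF were below both with it, though they were far from each other (-1.65 ± 0.33, limma adjusted p = 0.000781). Hspa5 was at 121 and 149 RPKM with HBEGF and 50.5 and 39.8 without (-1.56 ± 0.20, limma adjusted p = 1.83e-05). Psat1 was at 13.8 and 13.0 against 4.42 and 3.83 (-1.50 ± 0.19, limma adjusted p = 1.04e-05). The groups were apart for both genes. Phgdh fell as well, from 1.69 to 1.0 RPKM (-0.42 ± 0.12, limma adjusted p = 0.0135, or 0.0783 with median-of-ratios scaling).

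Chac1 read 1.92 and 4.41 RPKM with HBEGF and 3.88 and 2.27 without, so the groups overlapped (0.01 ± 0.47; 95% interval of the CPM change -1.21 to 1.25). Atf4 was at 61.5 and 64.9 RPKM with HBEGF and 43.8 in both libraries without it. These values do not overlap but the change did not pass (-0.52 ± 0.33, limma adjusted p = 0.254). Ddit3 was at 1.77 and 1.39 RPKM with HBEGF and 3.13 and 1.80 without, higher in both but not passing (0.40 ± 0.24, limma adjusted p = 0.231).

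Of the 9 chaperones and co-chaperones, 6 fell and 0 rose. Hsp90b1 changed by -1.19 ± 0.12 (limma adjusted p = 2.32e-06) and Sdf2l1 by -1.33 ± 0.27 (0.000954), followed by Creld2 (-0.60), Hyou1 (-0.59) and Dnajb11 (-0.58), while Manf, Dnajb9 and Dnajc3 did not pass. In CPM Manf was called lower (-0.71, limma adjusted p = 0.0488). The calls of Dnajb11, Creld2, Hyou1 and Phgdh were lost without single libraries (limma adjusted p up to 0.162, 0.24, 0.259 and 0.173). Sdf2l1 is short and lowly read: its values were 4.18 and 3.5 RPKM with HBEGF and 1.91 and 0.266 without, and leaving out the lower library gave a change of -0.73 (limma adjusted p = 0.0259). Of the lectin chaperones and isomerases, 4 of 5 fell: Pdia6 (-1.02), Calr (-0.95), Canx (-0.80) and Pdia3 (-0.72), with Pdia4 at -0.02. In the degradation group Edem1 fell (-0.42 ± 0.11, limma adjusted p = 0.00757).

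Ppp1r15a was the single member called higher, and its library values were chosen for printing after they were seen. It stood at 3.11 and 2.15 RPKM with HBEGF and 6.25 and 5.81 without, a rise of 2.30-fold with no overlap (0.97 ± 0.34, limma adjusted p = 0.0338). That call was lost when any of 3 of the 4 libraries was left out (limma adjusted p = 0.0931 to 0.204). On the CPM scale 15 of 32 members were lower and 3 higher (20.1% and 15.8% of all genes), the other two being Atf3 and Herpud1. Atf3, a stress-induced factor also chosen for printing after its values were seen, had 16 and 17 reads with HBEGF and 127 and 29 without (0.0431 and 0.0583 against 0.407 and 0.121 RPKM; CPM change 1.79, limma adjusted p = 0.00353). Herpud1, a scaffold of the degradation complex, was at 1.82 ± 0.321 against 1.06 ± 0.204 RPKM (limma adjusted p = 0.0426 in CPM and 0.0637 in RPKM).

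Scaling mattered more here than with the inhibitor. Median-of-ratios scaling left 9 members lower and gave 5 higher, where 14.4% of all tested genes were lower and 15.5% higher: Dnajb11, Creld2, Hyou1, Phgdh and Edem1 no longer passed, and Dnajb9, Herpud1, Sel1l and Derl1 joined Ppp1r15a. The groups did not overlap for 21 of 32 members, 16 of them lower, against 56.9% of all tested genes, with 37.1% lower. Astrocyte markers summed to 276 to 300 RPKM without HBEGF and 118 to 124 with it (5 of 9 rose, 2 fell), and oligodendrocyte lineage markers to 96.3 to 113 against 388 to 417 (3 of 7 fell, 3 rose). Microglia and macrophage markers summed to 11 to 24.7 without HBEGF against 0.0476 to 0.187 with it. Tmem119 was at 0 throughout, and Aif1 and Cx3cr1 were at 0 with HBEGF. The 1 marker in the main test rose, but with HBEGF it was below the filter of 1 RPKM. In CPM, 4 of 6 tested rose and 0 fell. Pericyte and fibroblast markers summed to 13.0 to 19.0 against 3.49 to 4.46, with Dcn at 0, and both tested markers rose. Their part in the changes of the 32 genes was not tested.

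Set side by side, the comparisons called 12 of the same members lower, 80.0% of the 15 lower with the inhibitor and 85.7% of the 14 lower after withdrawal. Over all tested genes the shares were 72.4% and 71.3%. The 12 were Asns, Canx, Creld2, Dnajb11, Edem1, Hsp90b1, Hspa5, Hyou1, Pdia3, Pdia6, Psat1 and Sdf2l1. No member was called higher in both. A direct test of the difference, the inhibitor's change minus that of withdrawal, called 0 of 27 members by limma (1.27% of all genes were called higher and 0.556% lower), with 6 at an unadjusted p below 0.05 (Calr, Canx, Chac1, Hspa5, Phgdh and Psat1). In CPM, 2 of 32 passed, both higher (2.33% of all genes higher and 1.52% lower), and they are genes of serine synthesis: Phgdh (1.02 ± 0.26, limma adjusted p = 0.0203) and Psat1 (0.93 ± 0.24, limma adjusted p = 0.0272), with the fall after withdrawal larger than the inhibitor's change. For Chac1 the difference was -2.40 in CPM (95% interval -3.98 to -0.81, limma adjusted p = 0.0875), and for Atf4 it was -0.71 (-1.61 to 0.20), so neither gene was shown to respond differently.

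**Figure D3:**
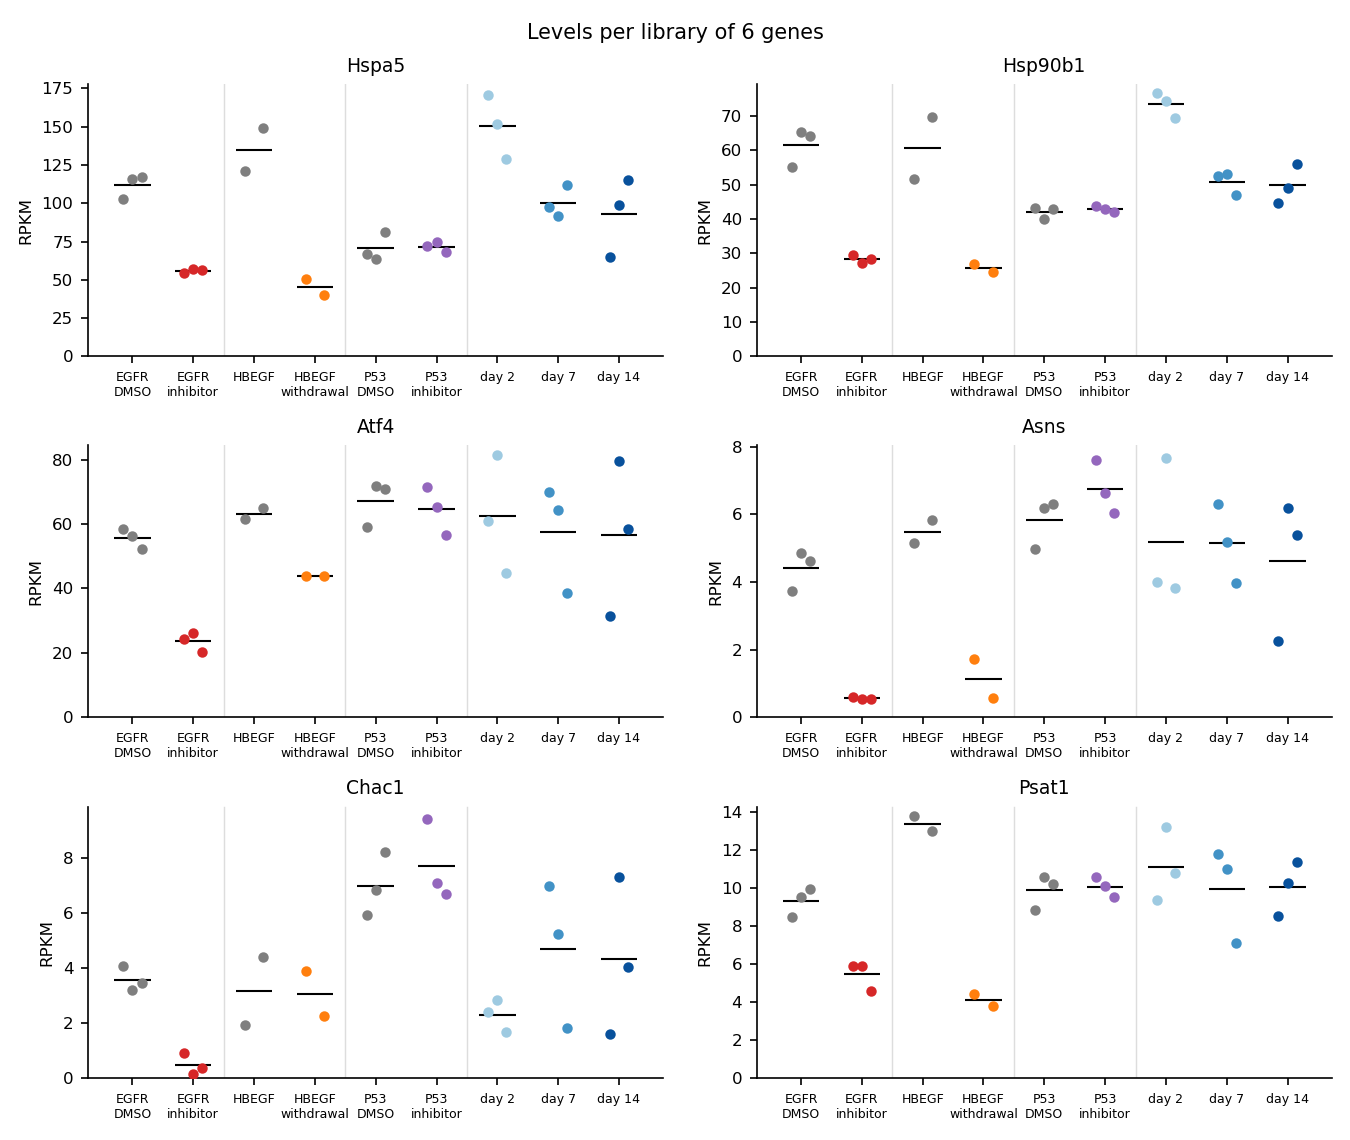
RPKM (vertical axes, from 0) of Hspa5, Hsp90b1, Atf4, Asns, Chac1 and Psat1 in each of the 25 libraries, by group, with group means as lines. With the EGFR inhibitor all 6 genes sit below their DMSO libraries, whereas without HBEGF the Chac1 points overlap those with HBEGF and Atf4 is only moderately lower.

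The P53 inhibitor changed none of the tested members by limma: 0 of 27 were called in either direction, where 0.152% of all tested genes were lower and 0.0289% higher, and 0 of 32 in CPM (0.353% and 0.121% of all genes). At an unadjusted p below 0.05 there was 1, Sdf2l1. Its values were 3.43, 2.14 and 2.36 RPKM with DMSO and 1.25, 0.976 and 1.54 with the inhibitor, lower in all 3 treated libraries (-0.69 ± 0.22, limma adjusted p = 0.278). Hspa5 was at 66.9, 63.4 and 81.5 RPKM against 71.8, 74.7 and 68.4, overlapping, with a 95% interval of the CPM change of -0.29 to 0.35. Atf4 was at 59.2, 71.9 and 70.7 against 71.6, 65.4 and 56.7, and Ddit3, a gene often linked to stress-induced death, at 2.28, 2.05 and 1.5 against 2.21, 2.29 and 1.10. Both overlapped. Asns was at 5.82 ± 0.744 RPKM with DMSO and 6.76 ± 0.792 with the inhibitor (interval -0.57 to 1.0). The groups did not overlap for 3 of 32 members, Sdf2l1, Calr and Hyou1, all lower, against 20.3% of all tested genes, with 11.3% lower.

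Across days in culture, chaperones fell while the 4 genes grouped as ATF4 targets did not pass. From day 2 to day 14, 11 of 27 members were lower and 0 higher by limma (17.6% and 5.55% of all tested genes). The members' median log2 change was -0.28, against -0.11 over all tested genes and -0.20 over those averaging at least 5 RPKM. The days form 3 comparisons that share libraries. Sdf2l1 was at 5.70, 4.56 and 3.70 RPKM on day 2, 2.05, 2.22 and 2.00 on day 7 and 1.27, 1.81 and 2.06 on day 14. The day 2 libraries stood apart from all later ones (-1.06 ± 0.22 from day 2 to 14, limma adjusted p = 0.0020). Xbp1, the factor activated by IRE1, was at 8.20, 9.44 and 6.22, then 4.78, 4.81 and 8.86, then 3.03, 4.65 and 3.5 RPKM. Days 2 and 14 did not overlap (-0.92 ± 0.20, limma adjusted p = 0.00286), and day 7 lay between with 1 library at the day 2 level.

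Hyou1 was at 7.28, 7.94 and 5.15 RPKM on day 2, 4.08, 3.70 and 5.11 on day 7 and 2.49, 3.69 and 4.54 on day 14 (-0.78 ± 0.16, limma adjusted p = 0.00222). Hspa5 was at 171, 152 and 129 RPKM on day 2, 97.4, 91.8 and 112 on day 7 and 64.8, 99.1 and 115 on day 14 (-0.72 ± 0.17, limma adjusted p = 0.00453). For both, every later library was below every day 2 library. Of the 9 chaperones and co-chaperones, 6 fell by day 14 (also Hsp90b1, Creld2 and Manf), as did 3 of 5 lectin chaperones and isomerases (Pdia3, Pdia4 and Pdia6), Edem1 and Xbp1. The calls of Pdia4 and Manf were lost without single libraries (limma adjusted p up to 0.151 and 0.177). Manf reached 1 RPKM in only 3 libraries, at 1.13 and 1.29 on day 2 and 1.13 with HBEGF. It thus entered the main test only through groups where it was high, and its call from day 2 is no independent sign of a fall. Canx, which fell with the inhibitor and after withdrawal, did not pass here (0.11 ± 0.09). It was called higher with median-of-ratios scaling (0.30, limma adjusted p = 0.0223), quantile normalization (0.38, limma adjusted p = 0.00736) and scaling without mitochondrial genes (0.25, limma adjusted p = 0.0441).

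The ATF4 axis varied between libraries of a day instead. Atf4 was at 61.0, 81.3 and 44.9 RPKM on day 2, 70.0, 64.2 and 38.6 on day 7 and 31.5, 79.6 and 58.4 on day 14, so all days overlapped (-0.20 ± 0.27, limma adjusted p = 0.669). Asns showed the same spread: 4.01, 7.68 and 3.83, then 6.32, 5.18 and 3.98, then 2.25, 6.19 and 5.40 RPKM. The libraries highest and lowest in Atf4 on days 2, 7 and 14 were also highest and lowest in Asns. Ddit3 was at 1.44, 1.78 and 1.22, then 2.36, 3.28 and 1.90, then 1.63, 2.30 and 2.10 RPKM, with day 7 above day 2 without overlap but not passing (limma adjusted p = 0.111).

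By day 7, 7 of 27 members were already lower and 0 higher (9.59% and 4.12% of all tested genes): Hspa5, Hsp90b1, Sdf2l1, Hyou1, Pdia3, Pdia6 and Edem1. Hsp90b1 (-0.52 ± 0.10, limma adjusted p = 0.00302) and Sdf2l1 (-0.86 ± 0.22, limma adjusted p = 0.0154) had the lowest p beside Edem1. The count was 2 without day 2 replicate 1 or 2, 3 without day 7 replicate 1 or 2, and 11 without day 2 replicate 3. On the CPM scale 9 members were lower and 1, Trib3, higher (10.1% and 5.78% of all genes; Trib3 0.91, limma adjusted p = 0.042), on 1 to 13 reads per library. Between days 7 and 14, 0 of 27 were called by limma in either direction (0.0866% of all tested genes were lower and 0.0505% higher), 2 at an unadjusted p below 0.05, Dnajc3 and Xbp1, and 0 of 32 in CPM (0.393% of all genes lower and 0.353% higher). From day 2 to 14, 13 of 32 members were lower and 0 higher in CPM (17.4% and 7.82% of all genes). Median-of-ratios scaling gave 8 members lower and 3 higher (8.38% and 8.64% of all tested genes). Manf, Pdia3 and Pdia4 no longer passed, and Canx, Dnajb9 and Sel1l were called higher. Quantile normalization also lost the call of Hsp90b1 (limma adjusted p = 0.0819). Each count is also subject to the rise of mitochondrial ribosomal RNA given above. Astrocyte markers summed to 73.5 to 101 RPKM on day 2 and 124 to 215 on day 14 (6 of 9 rose). Microglia markers summed to 0.742 to 2.27 and 0.148 to 0.225, with Tmem119 and Aif1 at 0 on both days. Of these, 1 of 1 tested in RPKM fell, as did 2 of 6 in CPM, where 0 rose. Pericyte and fibroblast markers summed to 1.22 to 2.89 and 3.72 to 8.5 (1 of 2 rose), and neuron markers to 2.81 to 4.68 and 4.51 to 5.36 (1 of 3 rose). Their part in the changes was not tested.

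**Figure D4:**
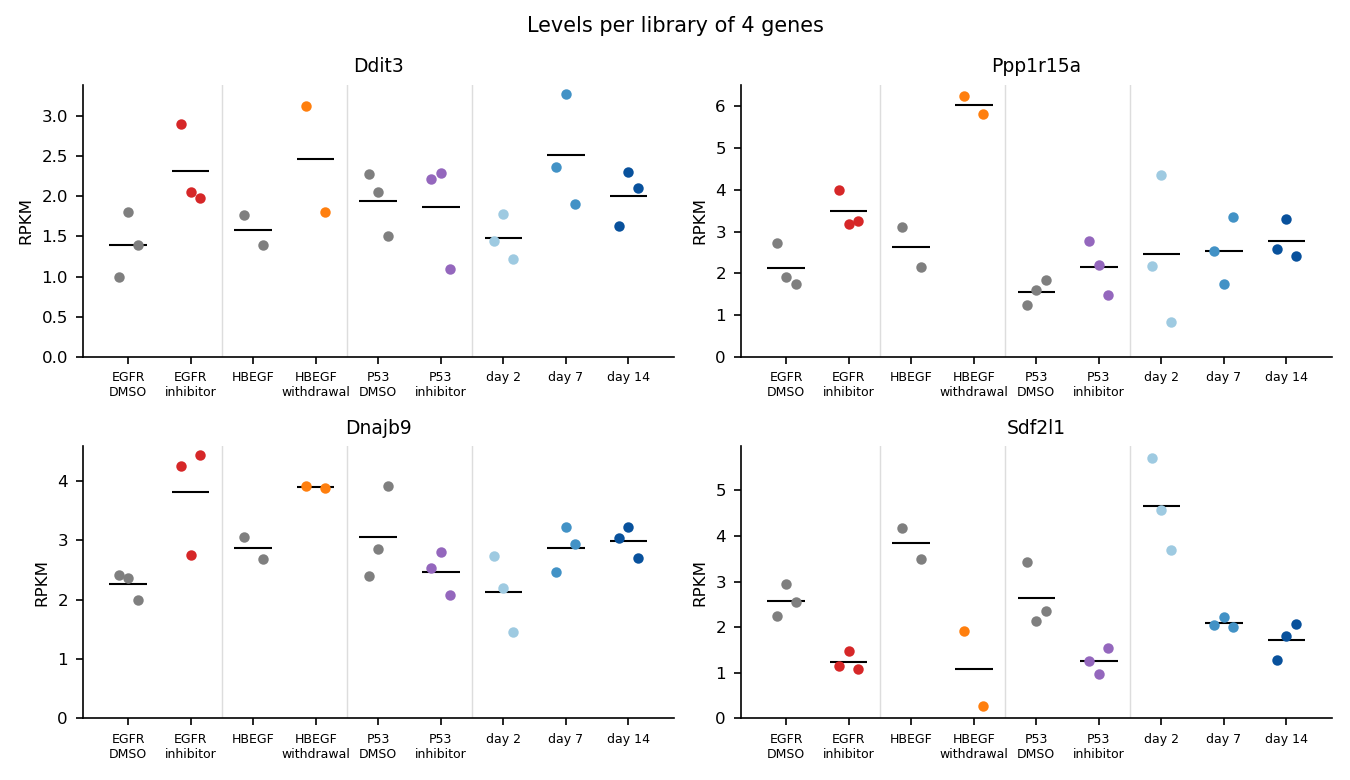
RPKM (vertical axes, from 0) of Ddit3, Ppp1r15a, Dnajb9 and Sdf2l1 in each of the 25 libraries, by group, with group means as lines. The first 3 genes are higher in all 3 EGFR inhibitor libraries than in their DMSO libraries, and Sdf2l1 is highest on day 2.

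Other genes of the same pathways were counted from lists, with up to 4 named per list by lowest p. The counts are to be read against all tested genes, of which 22.2% fell and 16.3% rose with the EGFR inhibitor, 22.5% and 10.0% after withdrawal, and 17.6% and 5.55% from day 2 to day 14. Among other genes of ER folding, glycosylation and translocation, 21 of 33 tested fell and 1 rose with the EGFR inhibitor, and 18 fell and 1 rose after withdrawal. P4hb, a protein disulfide isomerase, went from 22.6 ± 2.03 to 12.7 ± 0.354 RPKM with the inhibitor and from 23.8 ± 2.16 to 9.57 ± 0.111 after withdrawal. From day 2 to day 14, 9 fell and 1 rose. Other degradation genes were near those shares: 5 of 16 fell and 1 rose with the inhibitor, 5 fell and 2 rose after withdrawal, and 4 fell and 2 rose by day 14. The lectin Os9 rose 2.02-fold with the inhibitor (limma adjusted p = 4.51e-05).

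Other genes of ATF4 and the integrated stress response had larger changes. With the inhibitor 16 of 25 fell and 1 rose (median -0.77), and after withdrawal 13 fell and 2 rose (-0.55). Slc7a5, which imports leucine and other large amino acids, fell from 11.2 ± 0.725 to 1.62 ± 0.229 RPKM with the inhibitor (-2.22 ± 0.25, limma adjusted p = 2.29e-06) and from 13.8 ± 3.17 to 3.68 ± 1.35 after withdrawal (-1.67 ± 0.30, limma adjusted p = 0.000386). Shmt2, of mitochondrial serine use, fell by 1.61 and 1.30 on the log2 scale. All 12 aminoacyl tRNA synthetases of the cytosol tested fell in both comparisons, with medians of -0.95 and -0.90. Aars, the enzyme for alanine, went from 8.74 ± 0.588 to 2.53 ± 0.167 RPKM with the inhibitor, and Eprs from 8.55 ± 0.652 to 3.12 ± 0.176 after withdrawal. By day 14, 4 of 25 and 3 of 12 of these genes fell, near the share over all genes.

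Chaperones outside the ER were counted too. Of the mitochondrial ones, 4 of 8 fell and 1 rose with the inhibitor and 6 fell after withdrawal, where Hspd1 (HSP60) went from 25.6 ± 0.532 to 6.23 ± 0.526 RPKM. Of 15 cytosolic heat shock genes, 6 fell and 3 rose with the inhibitor, 9 fell and 4 rose after withdrawal, and 12 fell and 1 rose by day 14. The gene that rose by day 14 was Cryab, a small heat shock protein, from 1.57 ± 0.782 to 17.6 ± 3.35 RPKM (2.89 ± 0.27, limma adjusted p = 1.01e-06). Among 8 other regulators of the unfolded protein response, 2 fell with the inhibitor and 2 after withdrawal, near the share over all genes. With the P53 inhibitor, 0 genes of these 7 lists were called by limma.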

How the data were processed

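RNA of 25 libraries was measured by RNA-seq (total RNA, Ovation RNA-Seq V2 amplification, per the labels' protocols). The deposited values are RPKM per gene. The submitters' processing notes name STAR, HTSeq, edgeR, limma and GRCm38. Their versions and the strand setting: not given in the sources used here. RPKM multiplied by gene span (GENCODE M21, 98.7% of symbols matched) gave library sums of 1000771 to 1004301, where exon length gave 377321 to 519622, and the deposited RPKM was therefore read as divided by span. Whole reads were recovered from the steps of low values, 99.0 to 99.2% of which came out whole, and served for read counts and voom. CPM was the deposited RPKM multiplied by gene span in kilobases. The 32 genes and all lists were chosen with earlier results of these data known.

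limma 3.58.1 (R 4.3.3) was fitted to log2(RPKM + 1) of 13850 genes with at least 1 RPKM in at least 2 libraries. It used 9 group means over 25 libraries, a mean-variance trend, robust empirical Bayes and Benjamini-Hochberg adjustment at 0.05. Fold changes on this scale understate those of low genes. Folds given as "-fold" are ratios of mean RPKM. A fit on log2(CPM + 1) of 19832 genes with at least 1 CPM in at least 2 libraries, and voom on the same genes, were added after seeing the data. The procedure was tested on simulated data. Values per library are given for the 3 members of largest called change in each of 4 comparisons (EGFR inhibitor, withdrawal, P53 inhibitor, day 14 against day 2) and for Hspa5, Ddit3 and Atf4, and other lists name up to 4 genes of lowest p. Other alternatives were the pseudocount, filters, scalings, voom, each experiment alone, a replicate block, plain empirical Bayes and leaving out each library. Libraries correlated at up to 0.971, and 0 pairs were identical. Figures were drawn with matplotlib 3.10.9.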

Additional observations from a re-analysis of the deposited data

Results flagged for a closer look

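The change with the EGFR inhibitor minus the change after HBEGF withdrawal was tested for every member, and for 2 genes that difference passed on the log2(CPM + 1) scale. For Psat1 it was 0.93 (95% interval 0.44 to 1.42, limma adjusted p = 0.0272). For Phgdh it was 1.02 (95% interval 0.49 to 1.55, limma adjusted p = 0.0203). On the log2(RPKM + 1) scale neither passed, with limma adjusted p = 0.0885 for Psat1 and 0.0593 for Phgdh. Phgdh was at 1.13, 1.40 and 1.42 RPKM with DMSO, 1.58, 1.64 and 1.66 with the inhibitor, 1.96 and 1.42 with HBEGF and 1.04 and 0.956 without it, values chosen for printing after they were seen. The inhibitor libraries lay above their controls and the libraries without HBEGF below theirs.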

How the results depend on the processing

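No member changed direction past a threshold under any alternative. Members higher with the EGFR inhibitor numbered 2, and 1 with no filter, on log2(CPM + 1) or with plain empirical Bayes, 0 with a filter of 5 RPKM, 4 when scaled without mitochondrial genes and 5 with median-of-ratios scaling. After withdrawal the 1 higher became 0 with a pseudocount of 0.1 or the experiment alone, 2 with quantile normalization or voom, 3 without mitochondrial genes or with the CPM filter (limma or voom) and 5 with median-of-ratios. The 14 lower became 9 with median-of-ratios and 0 alone. From day 2 to 7, the 7 lower became 4 with median-of-ratios, 2 with quantile normalization, 3 without mitochondrial genes and 1 alone, and the 0 higher became 1 with the CPM filter. From day 2 to 14, the 11 lower became 7 with quantile normalization and 3 alone, and the 0 higher became 3 with median-of-ratios and 2 with quantile normalization or without mitochondrial genes. The 0 members higher in the difference between EGFR inhibitor and withdrawal became 2 on log2(CPM + 1), with voom and with the CPM filter (limma or voom). The cause was not tested. With each library left out in turn, members higher and lower ranged over 0 to 2 and 12 to 15 (EGFR inhibitor), 0 to 1 and 10 to 13 (withdrawal), 0 and 2 to 11 (day 7 against 2), 0 to 1 and 9 to 13 (day 14 against 2) and 0 to 1 and 0 (the difference), and stayed at 0 for the P53 inhibitor and day 14 against 7. Genes under about 20 reads, such as Trib3 and Chac1 with the inhibitor, are limited by depth.

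Same-numbered libraries showed little shared deviation (r = -0.003 to 0.006, 0.032, -0.03 to 0.061 and -0.095 to 0.118 in the EGFR, HBEGF, P53 and day experiments). The labels state no pairing, and such values from 2 or 3 libraries a group cannot exclude it. A fit with the replicate block gave 2 members higher and 13 lower (EGFR inhibitor), 1 and 12 (withdrawal), 0 and 3 (day 7 against 2) and 0 and 9 (day 14 against 2). The genes were not all the same: Derl1 (limma adjusted p = 0.109) gave way to Ddit3 (0.0317) with the inhibitor, and Ppp1r15a (0.078) to Herpud1 (0.042) after withdrawal. For Sdf2l1, the difference between inhibitor and withdrawal passed without withdrawal replicate 1 (1.25, limma adjusted p = 0.034).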
